A study of Homo sapiens with 15 samples.

Results

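The study set comprised 10 genes of the unfolded protein response, followed in BEAS-2B cells exposed to fine particulate matter (PM2.5). They were HSPA5, XBP1, DNAJB9, SDF2L1, HERPUD1, PDIA4, HYOU1, CALR, HSP90B1 and CRELD2. The genes were picked by gene symbol as known genes of this response, which starts in the endoplasmic reticulum (ER). All 10 genes were in the count table of 58219 genes, and all 10 were among the 17599 genes with enough reads to be tested.

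The ER folds secreted and membrane proteins with the help of resident chaperones, disulfide isomerases and their cochaperones. When unfolded proteins build up, the ER sensors IRE1 (encoded by ERN1), ATF6 and PERK (encoded by EIF2AK3) start the unfolded protein response. ATF6 and the spliced form of XBP1 switch on folding and degradation genes, whereas PERK slows translation and raises ATF4 and its targets. Airway epithelial cells rely on this system for the secreted proteins of the airway lining.

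BEAS-2B is an immortalised human bronchial epithelial cell line, grown here on collagen in serum-free medium. The particles were collected on filters in Beijing and extracted in water. In all, 15 libraries in 5 groups of 3 were sequenced, and each library of a group came from a separate experiment, numbered here 1 to 3. The numbers are those of the sample titles. Equal numbers within a protocol were taken to mean the same experiment, which the titles do not state. In the 24-h protocol, cells received vehicle control, a low concentration of 1 µg/cm2 or a high concentration of 30 µg/cm2 of PM2.5 once and were collected after 24 h. In the daily protocol, cells were plated at a lower density, were given either vehicle or PM2.5 at 1 µg/cm2 once a day with a wash between treatments, and were collected on day 7. The series record gives 7 daily treatments and the methods text 6. A single cell line was used, so p-values measure the spread between experiments with that line. Counts are per culture, so fewer cells with a transcript and less of that transcript per cell cannot be told apart.

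Reads assigned to genes ranged from 21460981 to 34724765 per library, with a median of 29243177. The 10 bronchial epithelial marker genes examined were all measured, among them KRT5 at 110 to 1072 counts per 1000000 reads (CPM). The lowest of them was KRT14, at 3.18 to 17.4 CPM. Of 11 markers of other cell types, 2 had enough reads to be tested (CD14, 2.30 to 23.5 CPM, and COL1A1, 22.3 to 52.0 CPM), and the leukocyte marker PTPRC did not exceed 0.0680 CPM. In the 24-h protocol, the libraries of experiment 2 stood apart from those of experiments 1 and 3. Mitochondrial transcripts made up 4.13 to 4.40% of their reads, compared with 2.76 to 3.42% in the other 6 libraries of that protocol. Fits without experiment 2 are given where they changed a call among the 10 genes. Such fits are not given for other genes.

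The promoters of the 10 genes are shown first because a defined ER stress element is present in most of them. The ER stress response element (ERSE) is CCAAT, then 9 bases of any kind, then CCACG, and the variant ERSE-II is ATTGG, then any base, then CCACG. Both were searched on both strands in RefSeq promoter windows running from 250 bases before to 50 bases after each start site (GRCh38.p14). ERSE was found in 5 of the 10 genes (HSPA5, XBP1, CALR, HSP90B1 and CRELD2) and in 25 of 27305 genes with a promoter in that table (0.0916%). ERSE-II was found in 3 of the 10 (SDF2L1, HERPUD1 and HYOU1) and in 19 of the 27305 genes (0.0696%). PDIA4 and DNAJB9 held neither. The 10 genes were picked as known genes of this response, so these shares describe the set and test nothing. The windows below are written 5′ to 3′ on the strand of the gene, and capitals mark the pair of 5-base boxes of the element. Where the element lies on the other strand, the capitals read as its reverse complement.
HSPA5, chr9:125241366-125241434, minus strand: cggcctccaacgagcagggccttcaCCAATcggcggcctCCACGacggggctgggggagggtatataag
XBP1, chr22:28800598-28800626, minus strand: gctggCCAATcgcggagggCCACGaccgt
CALR, chr19:12938359-12938427, plus strand: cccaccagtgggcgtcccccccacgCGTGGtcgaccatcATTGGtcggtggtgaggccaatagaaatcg
HSP90B1, chr12:103930211-103930239, plus strand: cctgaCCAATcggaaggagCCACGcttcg
HSP90B1, chr12:103930316-103930344, plus strand: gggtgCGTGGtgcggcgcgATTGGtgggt
CRELD2, chr22:49918549-49918577, plus strand: cctctCGTGGcgaactcggATTGGgccat
HERPUD1, chr16:56932016-56932044, plus strand: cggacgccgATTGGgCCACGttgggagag
SDF2L1, chr22:21642089-21642149, plus strand: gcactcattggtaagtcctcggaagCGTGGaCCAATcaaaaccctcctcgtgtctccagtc
HYOU1, chr11:119057355-119057415, minus strand: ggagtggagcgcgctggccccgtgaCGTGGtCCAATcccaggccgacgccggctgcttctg

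In HSPA5 the element ended 48 bases before the start site and in XBP1 34 bases before it. HSP90B1 carried 2 copies of ERSE in opposite directions, and HYOU1 carried 2 copies of ERSE-II, the nearer of which is not shown. The CCACG box alone was present in all 10 genes and in 42.09% of all genes. The 8-base core TGACGTGG of the unfolded protein response element (UPRE), on either strand, was found in HYOU1, where it overlapped the farther ERSE-II, and in 0.927% of all genes. Of the non-member genes in the lists described later, ERSE was found in CANX, PDIA6, ERO1B and EIF2A. A match is a run of letters, and binding at these sites was not measured.

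The 10 genes differed widely in level. Levels of different genes were compared as reads per kilobase of exon and 1000000 reads (RPKM), with the exon length given in the count table. In the 24-h control, CALR stood at 458 ± 32.7 RPKM and HSP90B1 at 456 ± 52.9 RPKM (SD, n = 3 here and for each mean below). HSPA5 followed at 305 ± 103 and PDIA4 at 136 ± 21.01 RPKM. CALR and HSP90B1 did not differ beyond their spread, HSPA5 lay below both in every library, and PDIA4 lay below every library of those 3 genes. SDF2L1 (41.1 ± 7.18 RPKM) and XBP1 (40.7 ± 8.91 RPKM) were alike, and HYOU1, HERPUD1, CRELD2 and DNAJB9 lay between 15.3 and 8.64 RPKM. This order depends on the exon lengths. CRELD2 stood above SDF2L1 in CPM (57.9 and 45.1), with lengths of 5165 and 1099 bases. Whether the cells used all exons of that length was not tested. In the 7-day control HSPA5 was the highest of the 10 at 545 ± 18.1 RPKM, and XBP1 stood at 87.5 ± 2.89 RPKM, above SDF2L1 at 35.1 ± 2.58 RPKM. The order of levels therefore differed between the protocols.

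**Figure D1:**
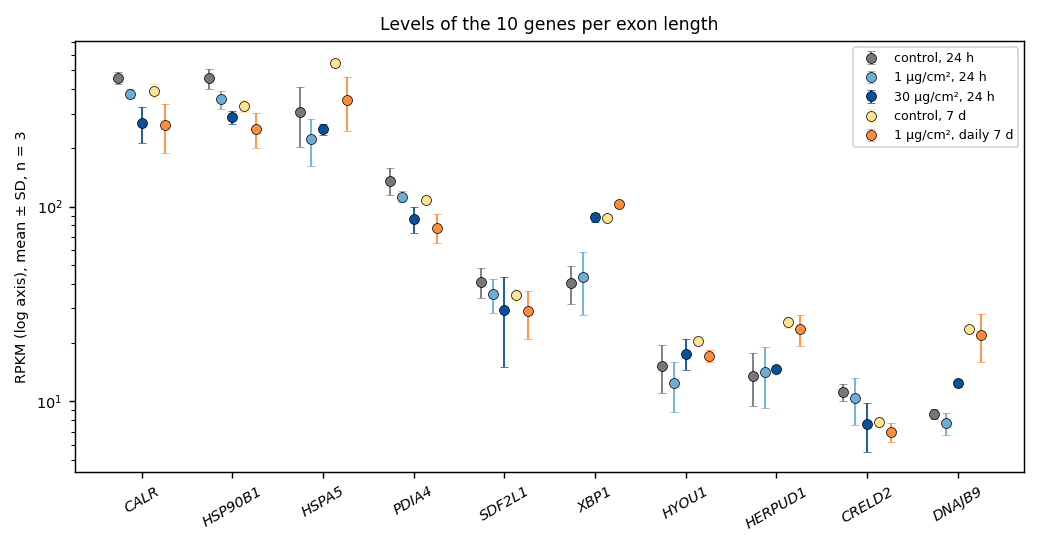
Mean level of each gene in each group in RPKM on a log axis, with bars of 1 SD over 3 libraries. CALR and HSP90B1 were highest in the 24-h control at 458 and 456 RPKM, and HSPA5 was highest in the 7-day control at 545 RPKM.

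The first question was whether a single high concentration of PM2.5 altered the 10 genes within 24 h. XBP1 rose, whereas 3 abundant ER folding genes, CALR, HSP90B1 and PDIA4, fell. The other 6 genes did not pass both thresholds, which were 0.05 for the adjusted p-value and 0.6 for the size of the log2 fold-change. The count of 4 of 10 compares with 8.07% of all tested genes called in this comparison (3.82% higher and 4.24% lower). The median log2 fold-change of the 10 genes was -0.39, beside 0.03 over all tested genes.

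XBP1 encodes the transcription factor whose messenger RNA is spliced by IRE1. Its level was 101, 153 and 115 CPM in the control libraries of experiments 1 to 3 and 256, 263 and 283 CPM in the libraries treated with 30 µg/cm2. Every treated library lay above every control library. The rise was 2.17-fold (log2 fold-change 1.12, SE 0.20, adjusted p = 0.00334, edgeR quasi-likelihood test). Within experiments the log2 ratio was 1.34, 0.78 and 1.31. XBP1 was called in each of the alternatives tried for this comparison, with log2 fold-changes from 0.98 to 1.31. Gene-level counts join spliced and unspliced XBP1 messenger RNA, so IRE1 activity could not be read from them.

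CALR encodes calreticulin, the lectin chaperone of glycoproteins and a store of ER calcium. Its level was 1188, 1197 and 1346 CPM in control and 618, 906 and 665 CPM after the high concentration. HSP90B1, which encodes the ER HSP90 paralogue GRP94, stood at 2093, 1919 and 2408 CPM in control and at 1248, 1461 and 1334 CPM after treatment. PDIA4, which encodes the disulfide isomerase ERp72, stood at 453, 373 and 510 CPM in control and at 255, 332 and 259 CPM after treatment. In all 3 genes every treated library lay below every control library, and the libraries of experiment 2 showed the smallest gap. CALR fell by 0.77 on the log2 scale (SE 0.20, adjusted p = 0.0223), a 1.70-fold lower level. HSP90B1 fell by 0.67 (SE 0.16, adjusted p = 0.0166) and PDIA4 by 0.66 (SE 0.16, adjusted p = 0.0153), both on the log2 scale.

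The calls of these falls depended on the libraries fitted. When only the 6 libraries compared were fitted, the log2 fold-changes were nearly the same, at -0.77 for CALR, -0.67 for HSP90B1 and -0.66 for PDIA4, but the adjusted p-values were 0.0918, 0.0997 and 0.116. Leaving out control replicate 3, high-concentration replicate 1 or high-concentration replicate 3 also ended all 3 calls, with adjusted p-values of 0.0626 to 0.107. Without the experiment 2 libraries of the 24-h protocol, an alternative chosen after seeing the data, CALR stood at -0.996, PDIA4 at -0.92 and HSP90B1 at -0.82 (log2 fold-change), and 6 of the 10 genes were called, beside 19.1% of all tested genes in that fit. The additional genes were SDF2L1 at -1.11 and CRELD2 at -0.73.

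DNAJB9 encodes ERdj4, an HSPA5 cochaperone and a well known target of XBP1. It stood at 22.8, 25.1 and 25.6 CPM in control and at 33.6, 35.4 and 36.6 CPM after the high concentration. The groups did not overlap, and the log2 ratio within experiments was 0.56, 0.49 and 0.51, but the fitted value of 0.52 (SE 0.17, adjusted p = 0.0721) did not pass. With the experiment as a block it was 0.52 with an adjusted p of 0.0148, still under the fold threshold. Exons of DNAJB9 share 99 bases with PNPLA8 and 183 bases with THAP5 on the opposite strand, and since the strand setting of the counting is not given in the sources used here, reads of these genes cannot be told apart there.

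CRELD2, an ER protein with disulfide isomerase activity, stood at 53.5, 64.4 and 55.8 CPM in control and at 32.5, 52.5 and 33.8 CPM after treatment. Again the groups did not overlap, and the fitted value was -0.55 (SE 0.20, adjusted p = 0.113). With the experiment as a block it was -0.58 with an adjusted p of 0.00211, under the fold threshold. SDF2L1, a partner of ER HSP40 proteins, stood at 47.3, 36.4 and 51.7 CPM in control and at 21.5, 50.4 and 24.997 CPM after treatment. It was lower in experiments 1 and 3 and higher in experiment 2, and its fitted value of -0.48 (SE 0.29, adjusted p = 0.348) was smaller than that spread.

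HSPA5 encodes BiP, the main ER HSP70 and the partner that holds the sensors inactive. It stood at 1324, 741 and 1514 CPM in control and at 975, 906 and 1041 CPM after the high concentration. The treated libraries fell inside the range of the controls, which was set by the low value of experiment 2. The fitted log2 fold-change was -0.29 (95% interval -0.83 to 0.25, adjusted p = 0.582).

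HYOU1 encodes GRP170, the nucleotide exchange factor of HSPA5, and HERPUD1 encodes a membrane component of ER-associated degradation. HYOU1 stood at 134, 80.2 and 139 CPM in control and at 152, 107 and 148 CPM after treatment, higher in each of the 3 experiments. Its fitted value was 0.20 (95% interval -0.25 to 0.65, adjusted p = 0.658), and HERPUD1 gave 0.12 (95% interval -0.34 to 0.57, adjusted p = 0.821). HERPUD1 ranged from 52.9 to 93.6 CPM in control and from 73.4 to 78.9 CPM after treatment, so the treated libraries lay inside the control range.

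Over the whole set, the groups did not overlap for 2 genes with higher treated values (XBP1 and DNAJB9) and 4 with lower (PDIA4, CALR, HSP90B1 and CRELD2). Among all tested genes 11.7% were separated in the higher and 11.1% in the lower direction. The genes with ERSE in their promoter were found on both sides, since XBP1 rose and CALR and HSP90B1 fell. The median log2 ratio of the 10 genes was -0.58 in experiment 1, 0.06 in experiment 2 and -0.63 in experiment 3. The bronchial markers moved in the same comparison. KRT5, KRT7, KRT8, KRT19 and CDH1 fell, none of the 10 rose, and their summed level was 3988 to 4425 CPM in control and 1772 to 2890 CPM after the high concentration. The part of that shift in the values of the 10 genes of the study set was not tested.

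**Figure D2:**
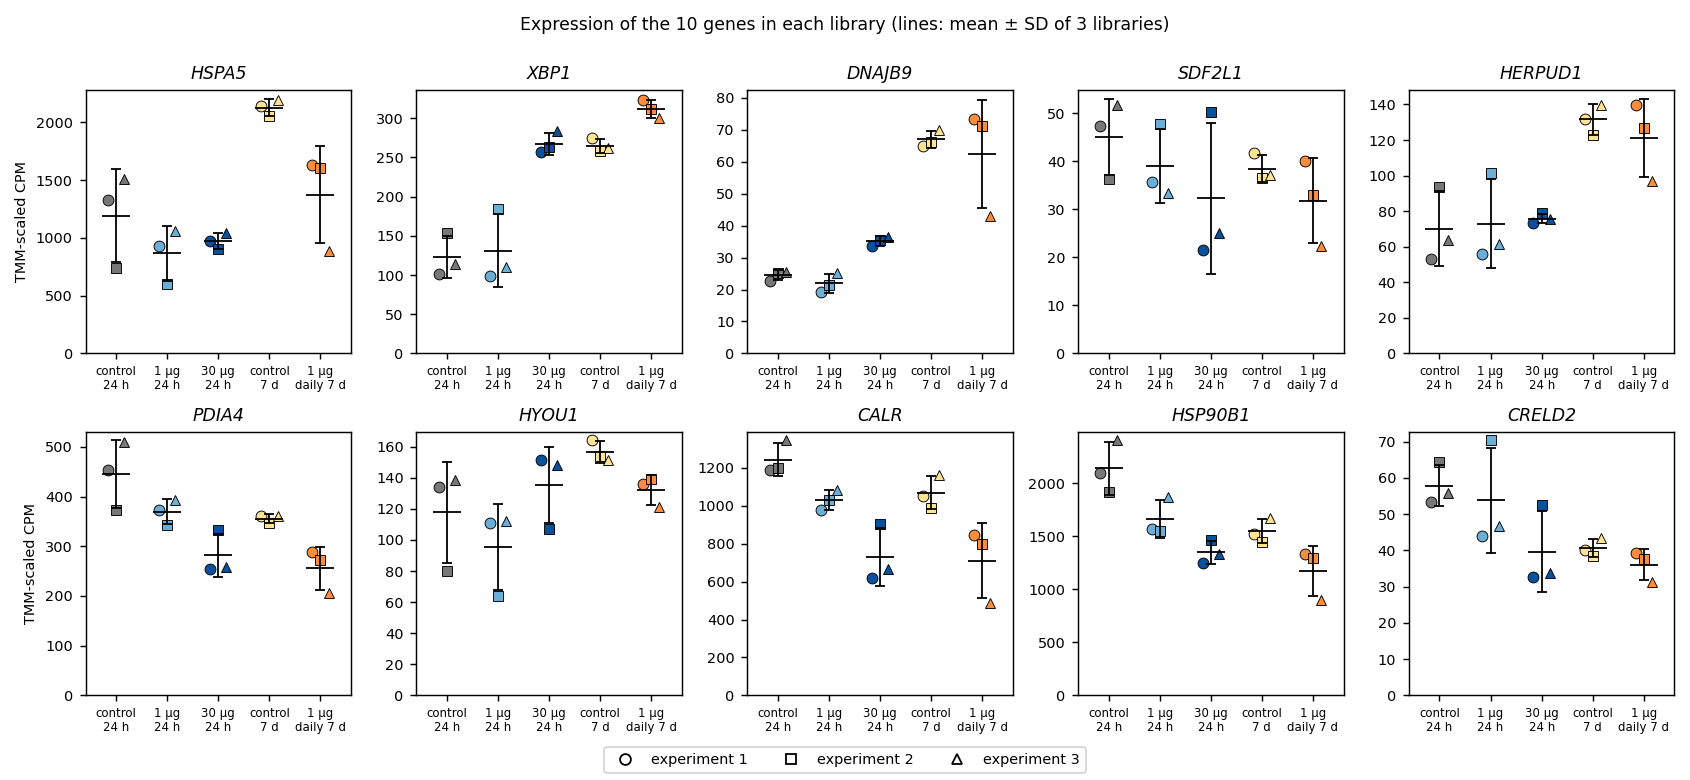
TMM-scaled CPM of each gene in each library by group, with doses in µg/cm2, symbols for the experiment, and lines for the mean and SD of 3 libraries. XBP1 stood at 256 to 283 CPM after 30 µg/cm2, above all 24-h control libraries, while CALR, HSP90B1 and PDIA4 lay below theirs.

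**Figure D3:**
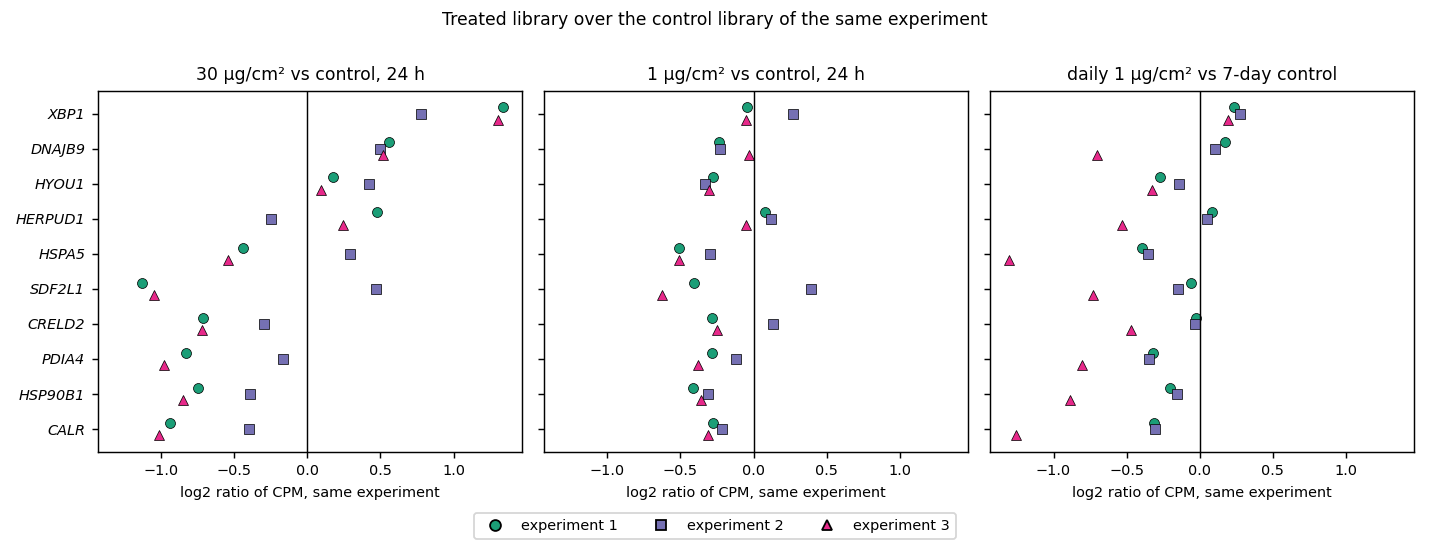
Log2 ratio of the treated to the control library of the same experiment for each gene, in 3 comparisons. Experiment 2 gave smaller ratios for XBP1, CALR and PDIA4 at 30 µg/cm2, and experiment 3 gave the lowest HSPA5 and CALR ratios after daily treatment.

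The rest of the pathway was examined in 8 gene lists. Among 13 sensors and regulators, 1 rose at the high concentration, the IRE1 gene ERN1. It stood at 23.3, 22.8 and 19.7 CPM in control and at 72.1, 27.7 and 66.5 CPM after treatment (log2 fold-change 1.34, SE 0.26, adjusted p = 0.00546). All treated libraries lay above the controls, with the smallest gap in experiment 2. ATF6 had an adjusted p of 0.0266 at a log2 fold-change of 0.36, under the fold threshold, and EIF2AK3 was at 0.09 (adjusted p = 0.782).

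The PERK-ATF4 arm differed most from the folding genes. Of its 13 genes 5 rose and none fell, with a median log2 fold-change of 1.21. TRIB3, a pseudokinase target of ATF4, rose by 2.61 on the log2 scale (adjusted p = 0.000617), and PPP1R15A, the phosphatase subunit that reverses the PERK mark, by 2.44 (adjusted p = 4.26e-05). ASNS, STC2 and CEBPG rose by 1.999, 1.63 and 1.01 (adjusted p = 0.0454, 6.98e-05 and 0.0247). ATF4 itself was at 0.84 (adjusted p = 0.0778) and DDIT3, which encodes CHOP, at 1.82 (adjusted p = 0.0816). With the experiment as a block both were called, at 0.90 (adjusted p = 0.000174) for ATF4 and 2.30 (adjusted p = 0.00107) for DDIT3. In DDIT3, ASNS, ATF4, TRIB3 and CEBPG the control library of experiment 2 lay above the other controls, with DDIT3 at 11.8, 48.1 and 12.9 CPM and ASNS at 88.1, 435 and 103 CPM. PPP1R15A (59.9, 61.9 and 63.4 CPM) and STC2 (216, 236 and 214 CPM) were nearly level between the controls. A higher level in the control of experiment 2 was also seen for XBP1 and HERPUD1, and the opposite for HSPA5 and HYOU1.

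The other lists moved in few genes. Of 22 other ER chaperones and cochaperones, HSPA13, UGGT2 and TOR1A rose by 0.97, 0.70 and 0.61 and FKBP7 fell by 0.85, all on the log2 scale. Of 18 genes of disulfide formation, the oxidases ERO1B and QSOX1 rose by 0.86 and 0.68. ERO1B carries ERSE in its promoter, as do CANX at 0.04 (adjusted p = 0.978) and PDIA6 at -0.45 (adjusted p = 0.0404), which fell short of the fold threshold. Of 24 translocation genes TRAM2 fell by 0.81 on the log2 scale. No gene of 25 in ER-associated degradation or of 17 in vesicle export from the ER was called, by edgeR's quasi-likelihood test. Of 12 tested heat shock genes, cytosolic apart from the mitochondrial HSPD1 and HSPE1, 1 rose. It was HSPA6, from 0.259 ± 0.148 to 12.8 ± 7.13 CPM (adjusted p = 0.000460, edgeR quasi-likelihood test). The medians of these 6 lists lay between -0.08 and 0.08, near the 0.03 of all genes.

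**Figure D4:**
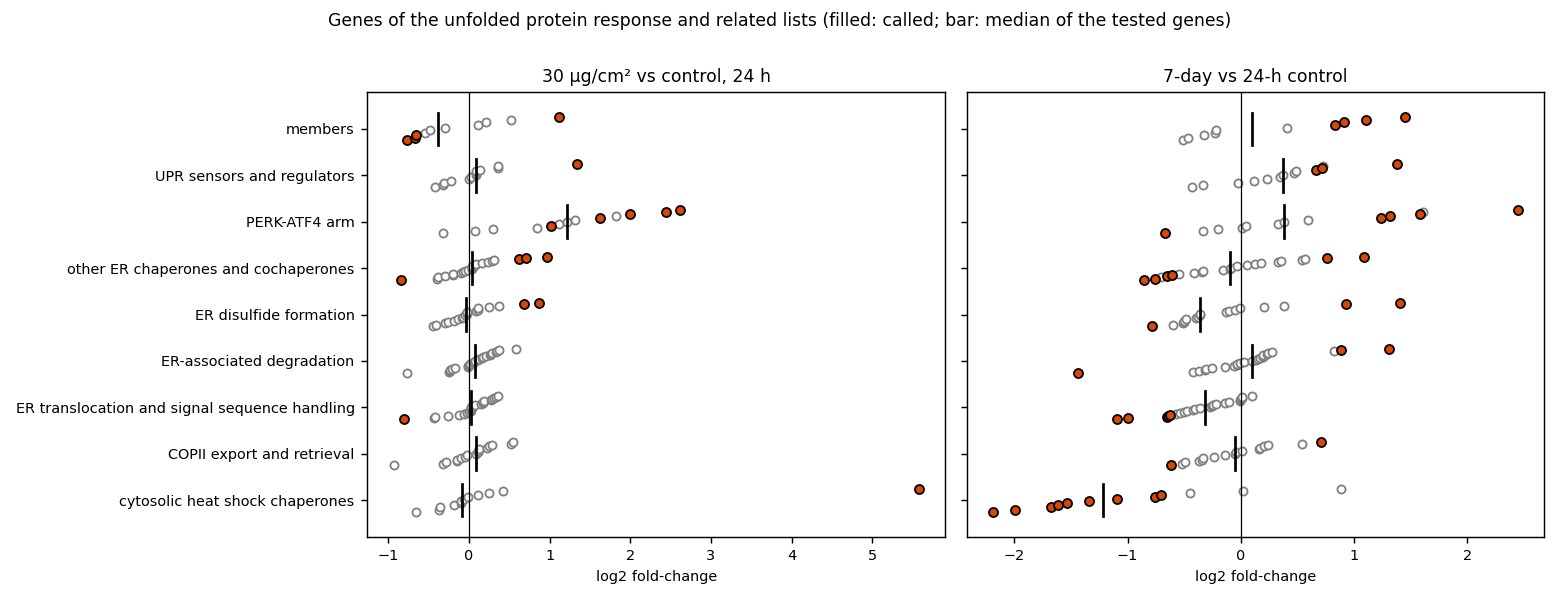
Log2 fold-changes of the tested genes of each list for the high concentration against control (left) and the 7-day against the 24-h control (right). Filled points passed both thresholds and the bar is the list median. At the high concentration it was 1.21 for the PERK-ATF4 arm and -0.39 for the 10 genes of the study set.

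A single low concentration was then compared with the same 3 controls. None of the 10 genes was called by edgeR's quasi-likelihood test, beside 0.0625% of all tested genes. A single gene, HSP90B1, had an unadjusted p under 0.05 (3.03% of all tested genes did). None was called by DESeq2, by edgeR's likelihood ratio test or with the replicate block, where 0.42% of all tested genes were. HSP90B1 stood at 1574, 1548 and 1875 CPM, below each control library, and the fitted value was -0.36 (SE 0.16, unadjusted p = 0.0401, adjusted p = 1). CALR stood at 978, 1032 and 1084 CPM, also below each control library, at -0.27 (95% interval -0.65 to 0.11). The groups were separated in this direction for 2.13% of all tested genes.

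Of the 10 values 8 were negative, with a median of -0.24 beside 0.01 for all tested genes. XBP1 was at 98.2, 185 and 110 CPM, which overlapped the controls (log2 fold-change 0.09, 95% interval -0.31 to 0.49). HSPA5 was lower than the control of its own experiment in all 3 experiments, at 931, 602 and 1063 CPM, with ratios of -0.51, -0.30 and -0.51 on the log2 scale (fitted value -0.46, adjusted p = 1). HYOU1 and PDIA4 were likewise lower in each experiment, at fitted values of -0.30 and -0.27 (adjusted p = 1 for both). DNAJB9 was lower in each experiment too, with log2 ratios of -0.24, -0.23 and -0.03 and a fitted value of -0.16. SDF2L1 (-0.21) and CRELD2 (-0.11) were lower in experiments 1 and 3 and higher in experiment 2, and HERPUD1 was at 0.06. No gene of the 8 lists was called at this concentration. ERN1, ATF6 and EIF2AK3 lay between -0.09 and -0.05, and ATF4 and DDIT3 were at 0.22 and 0.48 with SE of 0.28 and 0.61.

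**Figure D5:**
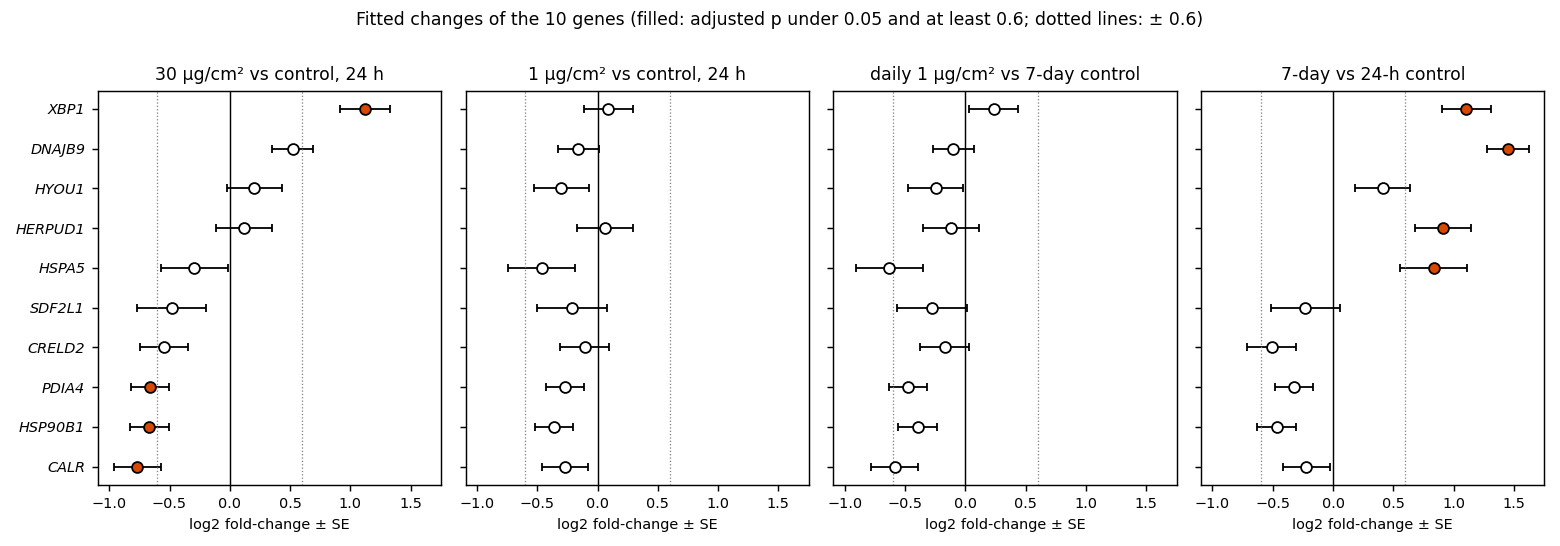
Fitted log2 fold-changes with bars of 1 SE in 4 comparisons, filled where both thresholds were passed. At 30 µg/cm2 XBP1 is at 1.12 and CALR at -0.77, no gene is filled for the 1 µg/cm2 comparisons, and 4 genes are filled for the 7-day against the 24-h control.

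The high and low concentrations were compared directly to ask whether the response depended on dose. XBP1 was 2.04-fold higher at the high concentration (log2 fold-change 1.03, SE 0.20, adjusted p = 0.00625). DNAJB9 was 1.60-fold higher (0.68, SE 0.17, adjusted p = 0.0231), with 19.3, 21.4 and 25.1 CPM at the low and 33.6 to 36.6 CPM at the high concentration. In both genes all high-concentration libraries lay above all low-concentration libraries. The count of 2 of 10 stands beside 7.84% of all tested genes, and the groups were separated in the higher direction for 11.5%.

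Neither call was kept when only these 6 libraries were fitted, although the log2 fold-changes were similar, at 0.999 for XBP1 (adjusted p = 0.136) and 0.65 for DNAJB9 (adjusted p = 0.118). DNAJB9 also lost its call without low-concentration replicate 1 or 2 (adjusted p = 0.106 and 0.0540) or high-concentration replicate 1 or 3 (adjusted p = 0.0779 and 0.0872). CALR, PDIA4 and HSP90B1 did not overlap between the concentrations either, at -0.50, -0.39 and -0.31 (adjusted p = 0.127, 0.136 and 0.261), all lower at the high concentration, beside 10% of all tested genes separated that way. By the adjusted p-value alone, 5 genes passed with the replicate block (XBP1, DNAJB9, HYOU1, CALR and CRELD2), beside 31.4% of all tested genes, compared with 2 without it, beside 10.1%. Without high-concentration replicate 2, 5 genes passed both thresholds (XBP1, DNAJB9, CALR, CRELD2 and SDF2L1), beside 15% of all tested genes in that fit. Without the 24-h libraries of experiment 2, CALR passed with XBP1 and DNAJB9 (CALR at -0.71, adjusted p = 0.00606), beside 17.3% of all tested genes. By the adjusted p-value alone 8 genes passed in that fit, beside 34.6%. In the fit of all libraries HSPA5 was at 0.17, HERPUD1 at 0.06, SDF2L1 at -0.27, HYOU1 at 0.50 and CRELD2 at -0.44 (adjusted p from 0.193 to 0.915). ERN1 (1.39), TRIB3 (2.19), PPP1R15A (2.07), STC2 (0.96), HSPA13 (0.88), UGGT2 (0.77), QSOX1 (0.74), TOR1A (0.71), ERO1B (0.71), SEC23B (0.65) and HSPA6 (5.10) were also higher, and TRAM2 (-0.87) and FKBP7 (-0.73) lower, on the log2 scale. The bronchial markers KRT5 (-2.07), KRT19 (-1.67) and KRT8 (-0.87) were lower as well, and their part in these values was not tested. ATF6 was at 0.43, EIF2AK3 at 0.18, ATF4 at 0.62 and DDIT3 at 1.35, none of which passed both thresholds. With the replicate block ATF4 (0.71, adjusted p = 0.000950) and DDIT3 (1.95, adjusted p = 0.00309) did pass, as did ASNS (1.85), CEBPG (0.87) and EDEM1 (0.61).

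Daily treatment with the low concentration was compared with the 7-day control to ask what repeated exposure did. No gene of the 10 was called, beside 0.227% of all tested genes, by edgeR's quasi-likelihood test or by DESeq2. An unadjusted p under 0.05 was found for 4 of them (HSPA5, PDIA4, CALR and HSP90B1), all lower after treatment, beside 11.9% of all tested genes. HSPA5 stood at 2145, 2051 and 2190 CPM in the 7-day control and at 1633, 1605 and 889 CPM after daily PM2.5. Each treated library lay below each control library, and the library of experiment 3 was far below those of experiments 1 and 2. The fitted log2 fold-change was -0.63 (SE 0.28, adjusted p = 0.387).

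CALR showed the same spread, with 1054, 988 and 1161 CPM in control and 848, 799 and 485 CPM after treatment (-0.59, SE 0.19, adjusted p = 0.237). PDIA4 stood at 360, 346 and 361 CPM in control and at 288, 272 and 206 CPM after treatment (-0.48, SE 0.16, adjusted p = 0.231). HSP90B1 stood at 1526, 1446 and 1672 CPM in control and at 1329, 1297 and 904 CPM after treatment (-0.40, SE 0.16, adjusted p = 0.339). In each of these genes the treated group lay below the control group and experiment 3 gave the lowest library.

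With the experiment as a replicate block, HSPA5 (-0.68, adjusted p = 0.0361) and CALR (-0.62, adjusted p = 0.0381) were called, beside 4.39% of all tested genes in that fit. Fitting only these 6 libraries called HSPA5 alone, at -0.62, beside 6.23% of all tested genes. By the adjusted p-value alone 6 genes passed in that fit (HSPA5, XBP1, PDIA4, HYOU1, CALR and HSP90B1), beside 28.2%. Both block calls were lost without the treated library of experiment 3, a fit chosen after seeing the data, where HSPA5 was at -0.38 (adjusted p = 0.298) and CALR at -0.31 (adjusted p = 0.310), beside 0.549% of all tested genes called. The ratios to the control of the same experiment were -0.39, -0.35 and -1.30 for HSPA5 and -0.31, -0.31 and -1.26 for CALR, on the log2 scale. That library held the lowest value of the 6 libraries of the protocol for 9 of the 10 genes, XBP1 being the exception, beside 23.1% of all tested genes. The median ratio of the 10 genes was -0.72 in experiment 3 and -0.13 and -0.15 in experiments 1 and 2.

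XBP1 was the one gene higher after daily treatment in all 3 experiments, at 275, 258 and 262 CPM in control and 324, 312 and 301 CPM after treatment. The difference was small (log2 fold-change 0.24, 95% interval -0.16 to 0.63, adjusted p = 0.693). DNAJB9 (65.0, 66.0 and 69.9 against 73.3, 71.1 and 42.9 CPM) and HERPUD1 (132, 123 and 140 against 140, 127 and 96.7 CPM) were higher in experiments 1 and 2 and lower in experiment 3. Their fitted values of -0.10 and -0.12 turned to 0.11 and 0.02 without the treated library of experiment 3. HYOU1 (-0.24), SDF2L1 (-0.28) and CRELD2 (-0.17) were lower in each experiment and not called. The groups did not overlap for 1 gene in the higher and 5 in the lower direction, beside 21.3% and 21.6% of all tested genes.

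None of the 8 lists had a called gene after daily treatment, by edgeR's quasi-likelihood test without the block. With it STC2, at 0.63, and the heat shock gene HSPB1, at -0.73, were called. The bronchial markers KRT19 (-1.02) and CDH1 (-0.61) were called with the block as well. ERN1 was at -0.21, ATF6 at 0.06, EIF2AK3 at -0.29, ATF4 at -0.01 and DDIT3 at -0.37 (log2 fold-change, adjusted p from 0.484 to 0.992). The bronchial markers KRT5 and TP63 fell by 0.93 and 0.99 on the log2 scale. The summed level of the 10 markers was 3544 to 4299 CPM in the 7-day control and 2538 to 2745 CPM after treatment. Its part in the values of the 10 genes of the study set was not tested.

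Whether the daily and the single low-concentration treatment differed in effect was tested as the difference of their log2 fold-changes. None of the 10 genes passed, and none had an unadjusted p under 0.05. Of all tested genes 0% passed in edgeR's quasi-likelihood test and 7.07% had an unadjusted p under 0.05. DESeq2 and the replicate block called none of the 10 either, and the block called 1.03% of all tested genes. The largest difference was that of CALR, at -0.32 (95% interval -0.85 to 0.22), followed by PDIA4 at -0.21 (95% interval -0.64 to 0.22). For HSPA5 the interval ran from -0.93 to 0.60 and for XBP1 from -0.41 to 0.71. DNAJB9, SDF2L1, HERPUD1, HYOU1, HSP90B1 and CRELD2 lay between -0.18 and 0.06. The intervals of DNAJB9 (-0.42 to 0.53) and HSP90B1 (-0.48 to 0.41) left out a difference as large as the fold threshold of 0.6. For every other gene of the 10 such a difference, in at least 1 direction, lay inside the interval. Among the regulators the value was -0.16 for ERN1, 0.14 for ATF6, -0.20 for EIF2AK3, -0.23 for ATF4 and -0.85 for DDIT3, with none called.

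The controls of the 2 protocols were then compared. DNAJB9, XBP1, HERPUD1 and HSPA5 were higher in the 7-day control, a count of 4 beside 21.9% of all tested genes called (11.1% higher). DNAJB9 rose from 24.5 ± 1.51 to 67.0 ± 2.58 CPM, 2.73-fold (log2 fold-change 1.45, SE 0.17, adjusted p = 6.4e-05). XBP1 rose from 123 ± 27.0 to 265 ± 8.76 CPM, 2.15-fold (1.11, SE 0.20, adjusted p = 0.00140). Both calls held in every alternative tried for this comparison.

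HERPUD1 rose from 70.0 ± 21.1 to 132 ± 8.53 CPM (0.91, SE 0.23, adjusted p = 0.0102), and lost its call without 24-h control replicate 1 (0.71, adjusted p = 0.0613) or 3 (0.81, adjusted p = 0.0619). HSPA5 rose from 1193 ± 403 to 2129 ± 70.8 CPM (0.84, SE 0.28, adjusted p = 0.0372). Its call was lost without 24-h control replicate 1 or 2 or any single 7-day control library, with adjusted p-values of 0.0663 to 0.133. It was also lost without the experiment 2 libraries, where the value of 0.57 fell under the fold threshold.

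None of the other 6 genes was called, although all 7-day HYOU1 libraries lay above all 24-h control libraries. HSP90B1 was lower in the 7-day control, at -0.47 on the log2 scale (adjusted p = 0.0414, under the fold threshold), and CRELD2 stood at -0.51 (adjusted p = 0.0758). PDIA4 at -0.32, SDF2L1 at -0.23, CALR at -0.22 and HYOU1 at 0.41 were not called (adjusted p from 0.134 to 0.588). Groups did not overlap for 5 genes in the higher and 4 in the lower direction, beside 27.6% and 24.7% of all tested genes. Time in culture, plating density, washes and experiment differed together between the protocols and cannot be told apart.

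Other lists differed between the controls as well. ERN1, EIF2AK3 and MBTPS2 were higher by 1.38, 0.72 and 0.66, and ATF6 was at 0.37, under the fold threshold. DDIT3, TRIB3, CEBPG and PPP1R15A of the PERK-ATF4 arm were higher by 2.45, 1.59, 1.32 and 1.24, DDIT4 fell by 0.67, and ATF4 was at 0.33 (adjusted p = 0.413). DNAJC3, HSPA13, ERO1B, TMX4, SEL1L, EDEM1 and LMAN1 were higher by 0.70 to 1.40. SDF2, PPIB, SERPINH1, FKBP7, PRDX4, VCP, SEC13, SEC61G, TRAM2, SRP14, SRP9 and SRP54 were lower, at -1.44 to -0.61. SEL1L and EDEM1, which act in ER-associated degradation with HERPUD1, were at 1.30 and 0.88.

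The list medians differed in direction. They were 0.10 for the 10 genes, 0.37 for sensors and regulators, 0.38 for the PERK-ATF4 arm and 0.10 for ER-associated degradation. They were -0.36 for disulfide formation, -0.32 for translocation, -0.09 for other ER chaperones and -0.06 for vesicle export. The heat shock list, cytosolic apart from the mitochondrial HSPD1 and HSPE1, was lowest. Of its 12 tested genes 9 were called lower in the 7-day control and none higher, with a median of -1.22. HSP90AA1, HSPE1 and HSPA8 were the lowest, at -2.19, -1.998 and -1.68 (adjusted p = 0.000211, 0.000224 and 0.00814). In experiments 1 to 3 the 24-h controls stood at 2917, 831 and 3331 CPM for HSPA8 and 3977, 1794 and 4371 CPM for HSP90AA1. The 7-day controls stood at 695 to 785 CPM and 694 to 810 CPM. The HSPA8 control of experiment 2 thus lay near the 7-day level, and the HSPA8 value rested mainly on experiments 1 and 3. The rise of HSPA5 between the controls was not shared by its cytosolic relative HSPA8, on the log2 scale of these fits. The bronchial markers differed as well: CDH1, TP63, KRT19 and EPCAM were higher, at 1.36, 1.21, 1.19 and 1.17, and KRT18, KRT7 and KRT8 lower, at -1.35, -1.05 and -0.79. The part of these shifts in the values of the 10 genes of the study set was not tested.

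The 10 genes did not vary as a unit over the 15 libraries. Of the 45 pairs among them, 24 had a positive and 21 a negative Pearson correlation of log2 CPM, with a median of 0.16. CALR, HSP90B1 and PDIA4 formed a close group, at 0.92 to 0.96, and DNAJB9, HERPUD1 and XBP1 another, at 0.78 to 0.85. XBP1 and PDIA4 gave the lowest value, -0.76. These values describe libraries that share experiments and protocols, so they carry no p-value. The correlation of single genes with the mean profile of the 10 ran from 0.85 for HSPA5 to 0.03 for CRELD2.

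Outside the set, the genes most like that mean profile were LAPTM5 (0.91), TMED10 (0.91), TOMM20 (0.90) and EIF2A (0.90), followed by CAMK2N1, DUSP9, EIF4B, IL2RB, SNX5 and IRF2BP2 at 0.87 to 0.89, over 15 libraries. In the 9 libraries of the 24-h protocol alone, 1 of these 10 genes, SNX5, was again among the top 10. TMED10 carries cargo between the ER and the Golgi apparatus.

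The counts behind these values were large, from 432 reads for DNAJB9 in its lowest library to 69806 for HSPA5 in its highest. Pseudogenes of HSPA5, XBP1 and HSP90B1 held at most 29 reads in any library. CRELD2 shares 168 exon bases with ALG12 and HSP90B1 121 with UQCC6 on the opposite strand. ALG12 reached 994 reads, in the range of CRELD2, whose exons span 5165 bases. PNPLA8 and THAP5, which share exon bases with DNAJB9, reached 3102 and 2158 reads, beside at most 2462 for DNAJB9. How many reads fell on the shared bases is not known, so the values of CRELD2 and DNAJB9 are uncertain.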

How the data were processed

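The authors sequenced poly-A RNA from 15 BEAS-2B cultures as single-end 50-base reads, aligned them with STAR and counted reads per gene with featureCounts. The deposited values are raw counts per gene, with an exon length for each gene. The labels list hg19 and the methods GRCh38. Gene coordinates in the count table matched GRCh38, where 57370 of 57437 genes lay on the same gene of a GRCh38 annotation. The counting options, strand setting and annotation are not given in the sources used here. No columns of other samples were present.

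Groups and replicate numbers came from the sample labels. Libraries of a protocol with equal numbers were taken as the same experiment, which the sample titles do not state. Counts were filtered with filterByExpr (17599 of 58219 genes kept), scaled by TMM and fitted with the quasi-likelihood test of edgeR 4.0.16 in its earlier mode (R 4.3.3), with 1 mean per group over all 15 libraries. P-values were adjusted by Benjamini-Hochberg over all tested genes. A gene was called where its adjusted p was under 0.05 and its log2 fold-change was 0.6 or more in size. The same 3 controls serve both concentrations, so those comparisons are not independent. Because the series record calls the number a batch, the experiment was fitted as a replicate block in an alternative. Deviations of same-numbered libraries from their group means correlated at 0.20 to 0.72 in the 24-h and 0.12 to 0.18 in the daily protocol. Libraries with different numbers ran from -0.68 to 0.45, with a mean of -0.23, and from -0.13 to -0.03, with a mean of -0.08. Deviations cancel out within a group, so higher values for equal numbers force lower ones for different numbers. The contrast is therefore no separate support for the block. Other alternatives were RLE and upper-quartile scaling, other filters on low counts, fits of only the groups compared, edgeR's current mode, DESeq2 1.42.0 and leaving out each library. The scripts were tested on simulated data.

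The 10 genes, the lists and the comparisons were chosen with earlier results of these data known. All 10 genes are named in each comparison. From a pathway list, every called gene is named where 6 or fewer were called, otherwise the 3 largest rises and falls, together with ERN1, ATF6, EIF2AK3, ATF4 and DDIT3. The 10 genes most like the mean profile were ranked by Pearson correlation of log2 CPM (prior count 2). Fold-changes are those of the fit, CPM values are TMM-scaled, and 95% intervals assume a normal error. Promoter sequences are from RefSeq, where all 10 genes were found. The windows have 25 bases on each side of the element. Where such a window reached into the gene as counted, 5 were used for ERSE and 9 for ERSE-II. The shorter windows of HSP90B1 and CRELD2 still lay inside the gene as counted, which starts at 103930107 and 49918167. Their elements thus lie before the RefSeq start site but after the first counted base.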

Additional observations from a re-analysis of the deposited data

How the results depend on the processing

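Scaling and low-count filters shifted no count of called genes among the 10 by over 1.5 times. Fitting only the groups compared left 1 gene called for the high concentration, 0 for high against low and 1 for daily treatment. Leaving out single libraries gave 1 to 6 called genes for the high concentration, 1 to 5 for high against low and 2 to 3 for the 7-day against the 24-h control. The replicate block gave 2 called genes after daily treatment and changed no other call among the 10. No paired analysis was possible for the 7-day against the 24-h control because the numbers belong to different experiments. Of the 10 genes most like the mean profile, 1 was shared when only the 24-h libraries were used.

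Signs turned only in genes that were not called. Without the 24-h libraries of experiment 2 these were XBP1 at the low concentration (-0.041), HSPA5 between high and low (-0.0091), and SDF2L1 (0.24) and CRELD2 (0.088) in the daily against single comparison. With the replicate block and without the daily library of experiment 3 they were DNAJB9 (0.14) and HERPUD1 (0.063). Leaving out single libraries, HERPUD1 ran from -0.069 to 0.38 and HYOU1 from -0.0095 to 0.34 at the high concentration. At the low concentration XBP1 ran from -0.24 to 0.30, HERPUD1 from -0.26 to 0.34 and CRELD2 from -0.35 to 0.035. Between high and low, HSPA5 ran from -0.048 to 0.34 and HERPUD1 from -0.13 to 0.36. After daily treatment DNAJB9 ran from -0.23 to 0.11 and HERPUD1 from -0.24 to 0.018. In the daily against single comparison the ranges were -0.38 to 0.078 for HSPA5, -0.051 to 0.48 for XBP1, -0.073 to 0.27 for DNAJB9, -0.26 to 0.14 for SDF2L1, -0.45 to 0.15 for HERPUD1, -0.16 to 0.26 for HYOU1, -0.13 to 0.12 for HSP90B1 and -0.20 to 0.18 for CRELD2. The cause was not tested.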
